A study of Mus musculus with 27 samples.

Results

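Chemokines are small secreted proteins that direct leukocytes along concentration gradients, and they act through G protein-coupled receptors on the cell that migrates. In fat, ligands of the receptor Ccr2 are known for the recruitment of blood monocytes, which become adipose tissue macrophages. Atypical receptors bind the same ligands without moving the cell, and they clear or transport them. The 56 genes described here are all those of the array whose symbol is a chemokine (Ccl, Cxcl) or a chemokine receptor (Ccr, Cxcr, Ackr) name with a number, together with Cx3cl1, Cx3cr1, Xcl1, Xcr1, Ccrl2 and Pf4. They are 34 ligand genes and 22 receptor genes out of 18193 genes measured.

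RNA was measured in the epididymal adipose tissue (EAT) of 27 male C57BL/6J mice, with 1 Affymetrix whole-genome mouse array for each mouse. The mice arrived at an age of 5 weeks, ate a standard diet for 1 week, and were then fed 1 of 3 diets for 18 weeks, 9 mice on each. Control mice received the purified AIN93G diet. WD mice received a Western diet with 39.9% of its energy from fat, 34% from sucrose and 0.15% cholesterol, and WQ mice received that diet with 0.05% quercetin, a plant flavonol. The mice were housed 3 to a cage and the cages are not given, so p-values measure the spread between mice and cannot take a cage effect into account.

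Values are log2 of the signal of 1 probe set per gene after quantile normalization, with signals below 1 set to 1 (a log2 signal of 0), and a difference is a difference of mean log2 signal between diets. Signals of different genes come from different probes and are not compared with each other. In bulk tissue, fewer cells of a type and less RNA per cell cannot be told apart. Differences come from a limma fit of the 27 arrays. Their p-values were adjusted over all 18193 genes by the Benjamini-Hochberg method, and the threshold was 0.05.

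Although the labels' extraction protocol speaks of liver, the titles name EAT, and 8 measured adipocyte markers were high on every array (mean log2 signal from 12.4 to 12.9). Liver markers lay more than 2 above the median array on 9 arrays (2 Control, 4 WD and 3 WQ), testis and epididymis markers were highest on Control replicate 6, WD replicate 7 and WQ replicate 5, and smooth muscle markers were highest on Control replicates 2 and 4. Control replicate 3 stood apart for the chemokines themselves. It had the highest signal of the 9 Control mice for 31 of the 56 genes, against 13.4% of all genes, and its mean over 10 B cell and lymph node markers was 6.71, which is 2.40 above the median of the 27 arrays. Its T cell marker mean of 5.78 was also the highest of the 27 arrays. The ratio of the 3' to the 5' actin probe sets, a measure of RNA integrity, was lower in WD than in Control by 0.33 on the log2 scale (exact two-sided permutation test, p = 0.0036) and higher in WQ than in WD by 0.35 (p = 0.00012 by the same exact test). The ratio for Gapdh was lower in WD than in Control by 0.19 (exact p = 0.055) and higher in WQ than in WD by 0.24 (exact p = 0.0070). The part of these differences between arrays in the results was not tested.

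Promoter sequences were available for 43 of the 56 genes in RefSeq (GRCm38.p6), and the 250 bases before the annotated start were searched on both strands for letters that the transcription factor NF-κB binds (GGGA and TTCC with any 2 bases between them, or GGGA, any base, TT, any base and CC, which overlap) and for those of interferon response elements (GAAA, any 2 bases and GAAA). The first motif was in 1.17% of all 27025 promoters and in 6 of the 43, the second in 0.94% of all and in 5 of the 43, and the third in 3.04% of all and in 2 of the 43. Members with either of the first pair were Cxcl1, Cxcl2, Cxcl3, Cxcl10, Ccl1 and Ccr3, and those with the third were Cxcl10 and Cxcl14. Shown are the stretches of the CXC ligands that hold an NF-κB match, of which 3 carry the same run of letters. Those of Ccl9 and Ccl8, which rose most on the Western diet, are shown beside them. Capitals mark the matches. A match is a description of the letters and not a measured binding site.
Cxcl1 (chr5:90891115-90891244, plus strand): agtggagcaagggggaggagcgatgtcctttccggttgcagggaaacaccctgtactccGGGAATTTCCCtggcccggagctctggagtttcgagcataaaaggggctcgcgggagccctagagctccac
Cxcl2 (chr5:90903769-90903898, plus strand): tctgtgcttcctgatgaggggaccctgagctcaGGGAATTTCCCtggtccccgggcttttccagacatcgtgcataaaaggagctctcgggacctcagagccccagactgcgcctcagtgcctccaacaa
Cxcl3 (chr5:90785971-90786100, plus strand): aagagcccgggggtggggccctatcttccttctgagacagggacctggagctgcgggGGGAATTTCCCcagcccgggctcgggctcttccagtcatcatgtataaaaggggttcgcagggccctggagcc
Cxcl10 (chr5:92348970-92349139, minus strand): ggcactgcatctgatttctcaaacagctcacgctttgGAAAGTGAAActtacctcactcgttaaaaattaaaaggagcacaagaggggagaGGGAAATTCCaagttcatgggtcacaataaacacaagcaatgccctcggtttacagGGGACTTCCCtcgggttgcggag
Ccl9 (chr11:83578637-83578766, minus strand): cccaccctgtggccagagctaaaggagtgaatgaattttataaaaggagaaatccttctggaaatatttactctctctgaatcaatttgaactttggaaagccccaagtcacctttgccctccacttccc
Ccl8 (chr11:82115055-82115184, plus strand): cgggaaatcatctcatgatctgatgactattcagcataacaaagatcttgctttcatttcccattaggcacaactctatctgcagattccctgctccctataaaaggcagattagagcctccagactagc
The neutrophil ligands Cxcl1, Cxcl2 and Cxcl3 shared the run GGGAATTTCCC, which matches both NF-κB motifs. In Cxcl10 a match to the interferon motif lay upstream of 2 separate NF-κB matches. No match to these 3 motifs lay in the 250 bases before Ccl9 or Ccl8.

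The first comparison, WD against Control, asks which chemokines and receptors changed with the Western diet. Of the 56 genes, 19 were higher in WD, which is 33.9% of them against 11.3% of all genes, and 1 was lower, Ccl27a, against 6.42% of all genes. The 19 were 12 ligands (Ccl9, Ccl8, Ccl2, Ccl6, Cxcl2, Ccl3, Cxcl17, Cxcl12, Cxcl14, Pf4, Cxcl16 and Ccl11) and 7 receptors (Ccr2, Cxcr4, Ackr1, Ackr4, Cx3cr1, Ccrl2 and Ccr1). The median difference over the 34 ligands was 0.66 and that over the 22 receptors 0.45, where the median of all genes was 0.00. Without Control replicate 3 the count of higher genes was 24, with Ccl4, Ccl7, Ccr7, Cxcl1 and Cxcr3 added and none lost. Without the 9 arrays high in liver markers it was 12, and Ccl2, Ccl3, Ccl11, Cxcl2, Cxcl17, Ccr1 and Cx3cr1 no longer passed. By the test that the study's methods name (Welch's analysis of variance, then Tukey's test) it was also 12. Lost by that test were Ccl2, Ccl3, Ccl11, Cxcl2, Cxcl14, Cxcl17 and Ccr1. Without the 3 arrays high in testis markers it was 15, with Ccl11, Ccr1, Cx3cr1, Cxcl17 and Cxcl2 lost and Ccl22 added. Without the 2 arrays high in smooth muscle markers it was 14, with Ccl11, Ccl3, Ccr1, Cxcl17 and Cxcl2 lost. Without all 13 arrays high in liver, testis, smooth muscle or lymph node markers 19 genes were again higher, but Ackr4, Ccl11, Ccr1, Cxcl14 and Cxcl17 dropped out and Ccl5, Ccl7, Cxcl1, Cxcl15 and Cxcr3 came in.

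**Figure D1:**
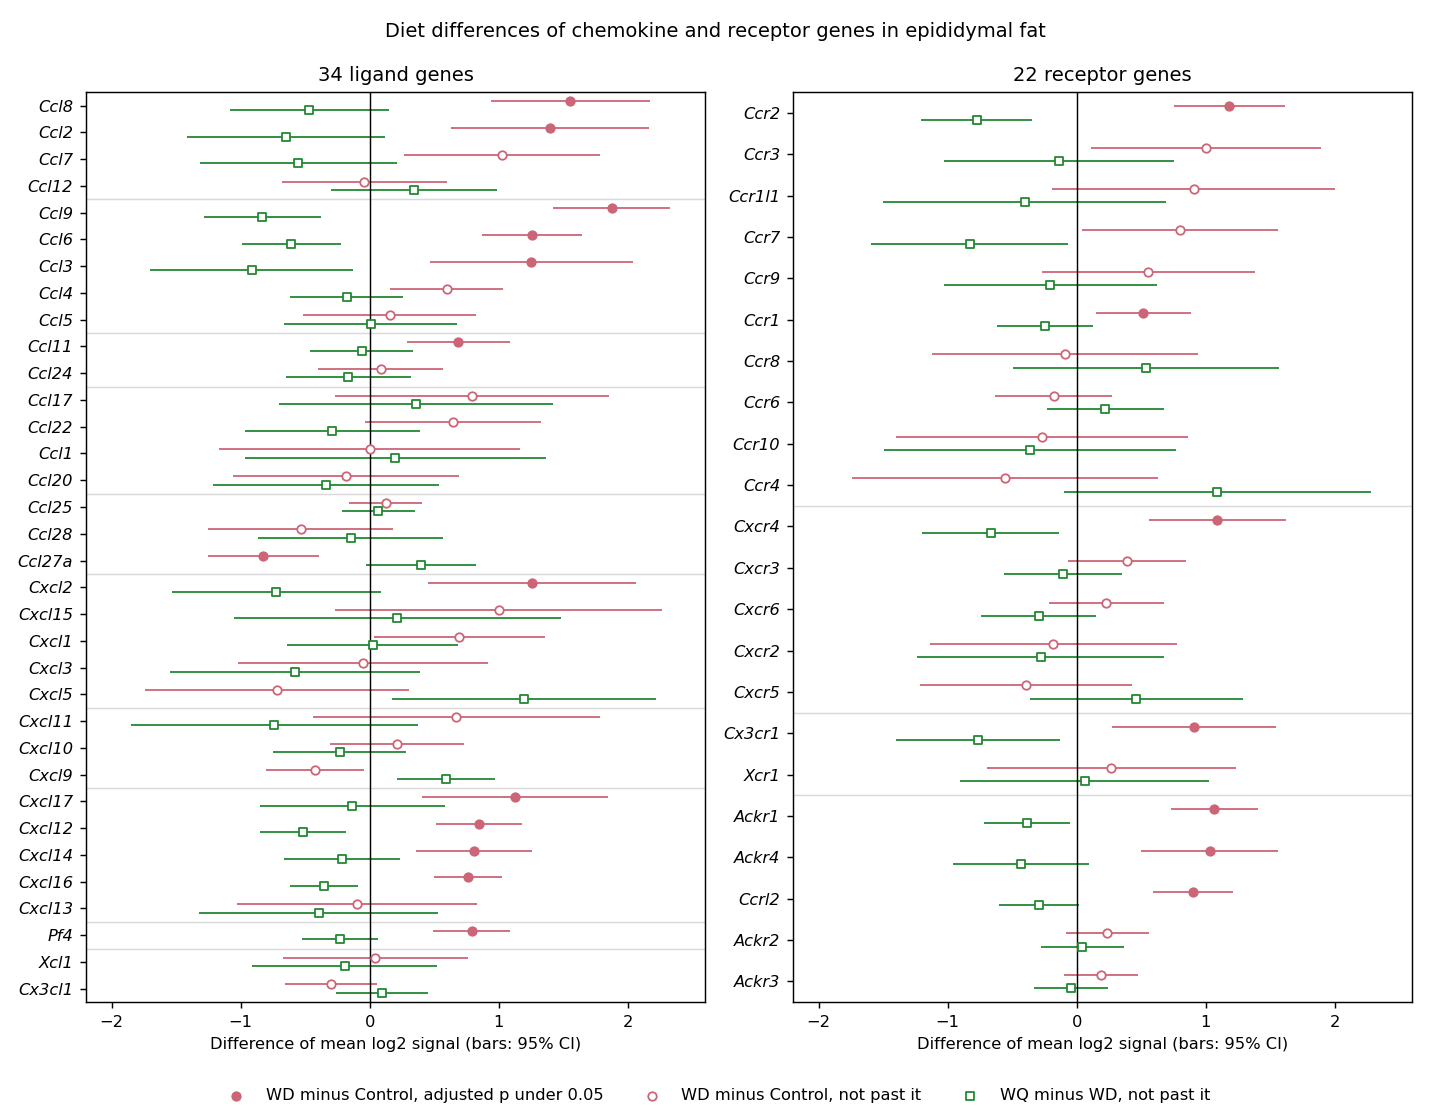
Differences of mean log2 signal (x axis) of the 34 ligand genes (left) and 22 receptor genes (right), grouped by role, with circles for WD minus Control, squares for WQ minus WD and bars for the 95% confidence interval. Filled symbols passed an adjusted p under 0.05: 19 genes were higher and 1 was lower in WD than in Control, and no square is filled.

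Among the CC ligands that attract monocytes, Ccl8 and Ccl2 rose on the Western diet, while Ccl7 and Ccl12, like Ccl2 ligands of Ccr2, did not pass the threshold. Ccl8, a ligand of Ccr8 in the mouse, had log2 signals from 7.51 to 10.27 on the control diet (median 8.86), from 9.71 to 10.92 on the Western diet (median 10.39) and from 8.90 to 10.57 with quercetin (median 10.05). All 9 WD mice lay above the Control median, 5 of them above every Control mouse, and the mean was 2.94-fold higher (difference 1.56, 95% CI 0.94 to 2.17, adjusted p = 0.00056). For Ccl2, the classical monocyte chemoattractant, signals ran from 5.86 to 9.74 on the control diet (median 6.91), from 7.60 to 9.52 on the Western diet (median 8.67) and from 7.46 to 8.35 with quercetin (median 8.03). The diets overlapped, since Control replicates 3 and 1 had 9.74 and 8.85, while the other 7 Control mice stayed at or below 7.49. The difference was 1.40, 95% CI 0.63 to 2.17, adjusted p = 0.0092. It was larger without Control replicate 3 (1.71, adjusted p = 0.00017). The call was lost without the arrays high in liver markers (1.32, adjusted p = 0.087) and by the test that the study's methods name. Ccl7 ran from 5.39 to 9.18 on the control diet (median 6.55), from 7.08 to 8.67 on the Western diet (median 7.71) and from 6.57 to 7.60 with quercetin (median 7.31). Control replicate 3 was again the highest of all 27 mice, and the difference of 1.03, 95% CI 0.26 to 1.79, adjusted p = 0.055, just missed the threshold. Without that mouse it passed (1.33, adjusted p = 0.0024). Ccl12 ran from 4.70 to 7.67 in Control and from 5.13 to 6.70 in WD, with a difference of -0.04, 95% CI -0.68 to 0.60, adjusted p = 0.95.

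The receptor Ccr2 itself rose. Its signals ran from 7.33 to 9.15 on the control diet (median 8.08), from 9.02 to 9.98 on the Western diet (median 9.23) and from 7.53 to 9.18 with quercetin (median 8.59). Only Control replicate 3 (9.15) reached into the WD range, and 7 of the 9 WD mice lay above all Control mice. The difference of 1.18, 95% CI 0.75 to 1.61, adjusted p = 0.00024, was a 2.27-fold rise. All 4 probe sets of Ccr2 passed the threshold in this direction when probe sets were tested singly, with differences from 0.75 to 1.32.

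The ligands of Ccr1, which attract monocytes and macrophages, held the largest difference of the family. Ccl9 signals ran from 9.38 to 10.99 on the control diet (median 9.72), from 11.19 to 12.16 on the Western diet (median 11.95) and from 9.90 to 11.76 with quercetin (median 10.98). The lowest WD mouse lay above the highest Control mouse, so the 2 diets did not overlap, which held for 2 of the 56 genes (Ccl9 and Pf4) against 0.94% of all genes. The difference was 1.87, 95% CI 1.42 to 2.33, adjusted p = 6.4e-06, a 3.67-fold rise, and the other probe set of Ccl9 had 2.54, adjusted p = 5.6e-06. Ccl6, a close relative of Ccl9 made by macrophages, ran from 9.85 to 11.10 on the control diet (median 10.54), from 11.07 to 12.02 on the Western diet (median 11.71) and from 10.18 to 11.65 with quercetin (median 11.05). Here 8 of 9 WD mice exceeded every Control mouse, with a difference of 1.26, 95% CI 0.87 to 1.64, adjusted p = 4.8e-05. Ccl3, macrophage inflammatory protein 1 alpha, ran from 2.46 to 5.36 on the control diet (median 3.64), from 3.59 to 6.22 on the Western diet (median 5.20) and from 3.05 to 5.14 with quercetin (median 3.98). Its diets overlapped, with 3 WD mice above all Control mice and a difference of 1.25, 95% CI 0.46 to 2.04, adjusted p = 0.023. That call was lost without WD replicate 3, the highest mouse (1.08, adjusted p = 0.054). Ccl4, the neighbour and relative of Ccl3, had 0.60, 95% CI 0.16 to 1.04, adjusted p = 0.054, and Ccl5, which attracts T cells and monocytes, had 0.15, 95% CI -0.52 to 0.82, adjusted p = 0.80. Control replicate 3 had the highest Ccl5 signal of the 27 mice, 9.04, where the Control median was 6.98.

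The receptor Ccr1 ran from 5.06 to 6.68 on the control diet (median 5.87), from 6.34 to 6.91 on the Western diet (median 6.51) and from 5.70 to 6.66 with quercetin (median 6.41). Every WD mouse lay above the Control median, but the difference of 0.52, 95% CI 0.14 to 0.89, adjusted p = 0.047, stood at the threshold and was lost under many of the alternatives tried, among them leaving out any 1 of 16 arrays. A second, dimmer probe set of Ccr1 had -0.10, adjusted p = 0.88.

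**Figure D2:**
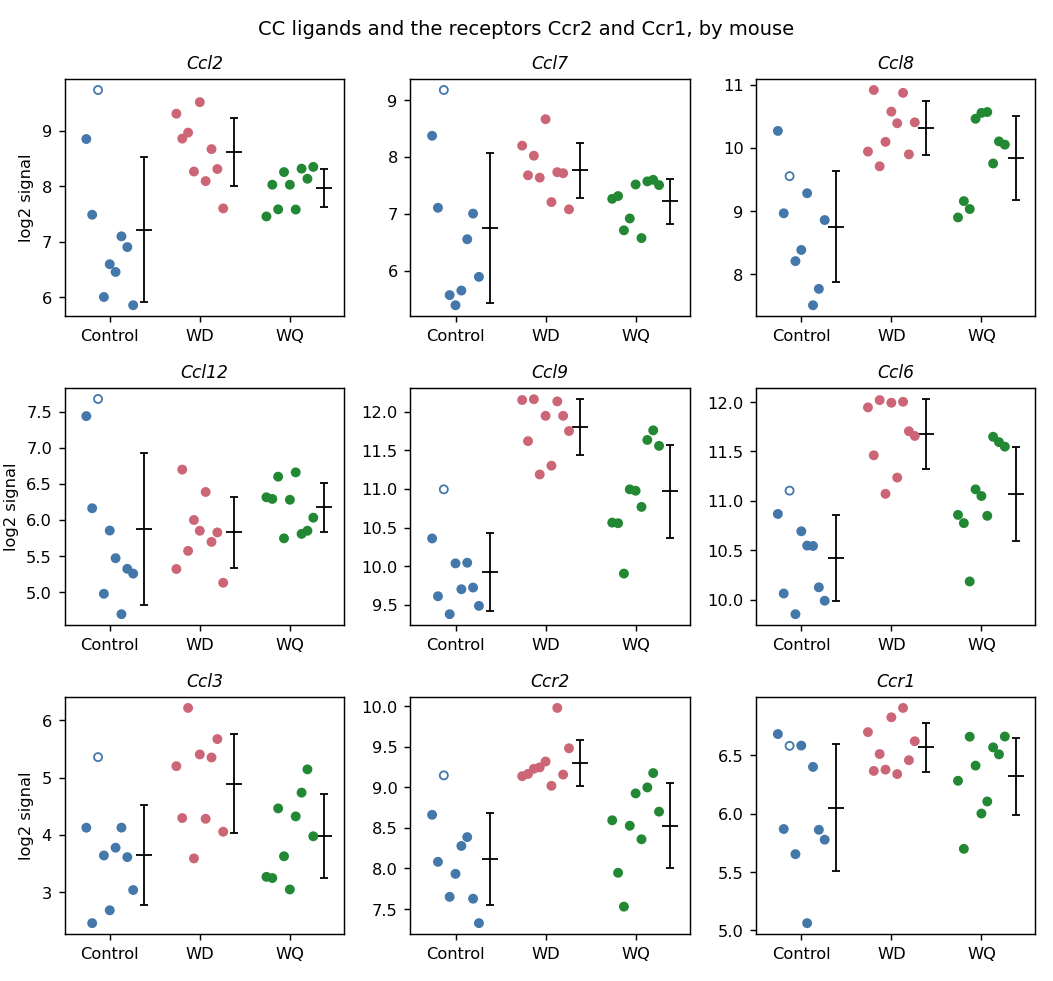
Log2 signal (y axis) of 7 CC ligands and of the receptors Ccr2 and Ccr1 in each mouse by diet, with the mean and SD beside each group of 9 mice and an open circle for Control replicate 3. Ccl9 did not overlap between Control and WD, and the open circle is the highest Control mouse for Ccl2, Ccl7 and Ccr2.

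Of the eosinophil attractants, Ccl11 rose and Ccl24 did not. Ccl11 (eotaxin) ran from 8.15 to 9.79 on the control diet (median 8.72), from 9.01 to 9.98 on the Western diet (median 9.35) and from 8.82 to 9.87 with quercetin (median 9.51). The WD mice overlapped with Control, 4 of them above all Control mice, and the difference was 0.69, 95% CI 0.29 to 1.08, adjusted p = 0.014. Without the arrays high in liver markers it was 0.76, adjusted p = 0.060, and without those high in testis markers 0.57, adjusted p = 0.053. Ccl24 had 0.08, 95% CI -0.40 to 0.57, adjusted p = 0.85. Their receptor Ccr3 was at the floor on 11 arrays, and none of its 27 values exceeded 3.35, so its difference of 1.00, adjusted p = 0.11, is that of signals near the floor.

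Of the neutrophil attractants, which act mainly through Cxcr2, only Cxcl2 passed the threshold, and its difference from the others was not tested. It ran from 3.80 to 8.06 on the control diet (median 5.48), from 5.83 to 8.28 on the Western diet (median 6.61) and from 5.04 to 7.01 with quercetin (median 5.96). Control replicate 3 had 8.06, which 1 WD mouse exceeded, Control replicates 5 and 8 also lay inside the WD range, and the difference was 1.26, 95% CI 0.45 to 2.06, adjusted p = 0.026. It fell short without the arrays high in liver markers (1.44, adjusted p = 0.10) and without WD replicate 3 (1.07, adjusted p = 0.061), Control replicate 4 or WD replicate 8. Cxcl1, which carries the same NF-κB letters, had 0.69, 95% CI 0.03 to 1.36, adjusted p = 0.14, with Control replicate 3 again highest at 9.60, and it passed without that mouse. Cxcl3, the third gene with that run, had 3 arrays at the floor, signals no higher than 3.53 and a difference of -0.05, adjusted p = 0.96. Cxcl5 and Cxcl15 were also low, with highest signals of 3.56 and 4.57. The receptor Cxcr2, the entry of neutrophils to this pathway, did not exceed 3.23 and had -0.18, adjusted p = 0.84.

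A further 5 CXC ligands (Cxcl12, Cxcl13, Cxcl14, Cxcl16 and Cxcl17) were grouped together, and 4 of them passed upward, with the limits given for each. Cxcl12, the stromal ligand that retains leukocytes through Cxcr4, ran from 8.94 to 10.40 on the control diet (median 9.69), from 10.29 to 11.17 on the Western diet (median 10.64) and from 9.63 to 10.52 with quercetin (median 10.20). Control replicates 3 and 4 lay within the WD range, 6 of 9 WD mice exceeded all Control mice, and the difference was 0.84, 95% CI 0.51 to 1.18, adjusted p = 0.00055. This rests on 1 of its probe sets (1448823_at). The other well-measured set (1417574_at) had 0.02, adjusted p = 0.97, and its WD signals of 9.59 to 10.07 lay inside the Control range of 8.97 to 10.75. Control replicates 7, 8 and 9 made the upper part of that range, at 10.26, 10.54 and 10.75. The other Control mice lay from 8.97 to 9.74, and the part of replicates 7, 8 and 9 in the result was not tested. Averaged over the 3 sets of the gene, of which 1439084_at was dim (mean log2 signal 2.57), Cxcl12 had 0.25, adjusted p = 0.48. The call thus rests on the choice of probe set. Cxcr4 ran from 5.49 to 7.77 on the control diet (median 6.43), from 6.72 to 8.45 on the Western diet (median 7.53) and from 5.94 to 7.62 with quercetin (median 6.84). Control replicates 1, 2 and 3 lay inside the WD range, with 3 WD mice above all Control mice, and the difference was 1.09, 95% CI 0.56 to 1.62, adjusted p = 0.0038. Ackr3, the scavenging receptor of Cxcl12, had 0.19, 95% CI -0.10 to 0.47, adjusted p = 0.39.

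Cxcl16, a membrane-bound ligand that is also a scavenger receptor of macrophages, ran from 6.51 to 7.27 on the control diet (median 6.75), from 7.05 to 7.94 on the Western diet (median 7.53) and from 6.88 to 7.53 with quercetin (median 7.09). Control replicate 3 was the 1 Control mouse above the lowest WD mouse, and the difference was 0.76, 95% CI 0.50 to 1.02, adjusted p = 0.00015. Both of its probe sets gave the same size of change, 0.76 and 0.75. Its receptor Cxcr6, found on T and natural killer T cells, had 0.23, 95% CI -0.22 to 0.67, adjusted p = 0.52. Cxcl14, made by stromal and epithelial cells, ran from 4.38 to 5.94 on the control diet (median 5.07), from 5.27 to 6.59 on the Western diet (median 6.04) and from 5.18 to 6.30 with quercetin (median 5.72). The ranges overlapped, with 5 WD mice above all Control mice and a difference of 0.81, 95% CI 0.36 to 1.26, adjusted p = 0.0099. This call, too, was lost by the test that the study's methods name. Cxcl17, a mucosal chemokine, was low on all diets, at 2.05 to 5.00 in Control and 4.03 to 4.90 in WD. None of its WD mice exceeded the highest Control mouse, its difference was 1.13, 95% CI 0.41 to 1.84, adjusted p = 0.025, and the call was lost without the arrays high in liver markers (1.30, adjusted p = 0.097), without Control replicate 5 (0.96, adjusted p = 0.057) or without Control replicate 9 (0.99, adjusted p = 0.056). Cxcl13, which gathers B cells in follicles, had -0.10, 95% CI -1.03 to 0.83, adjusted p = 0.91. Its highest signal of the 27 mice, 9.36, was that of Control replicate 3, and the receptor Cxcr5 was highest in the same mouse (5.89).

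**Figure D3:**
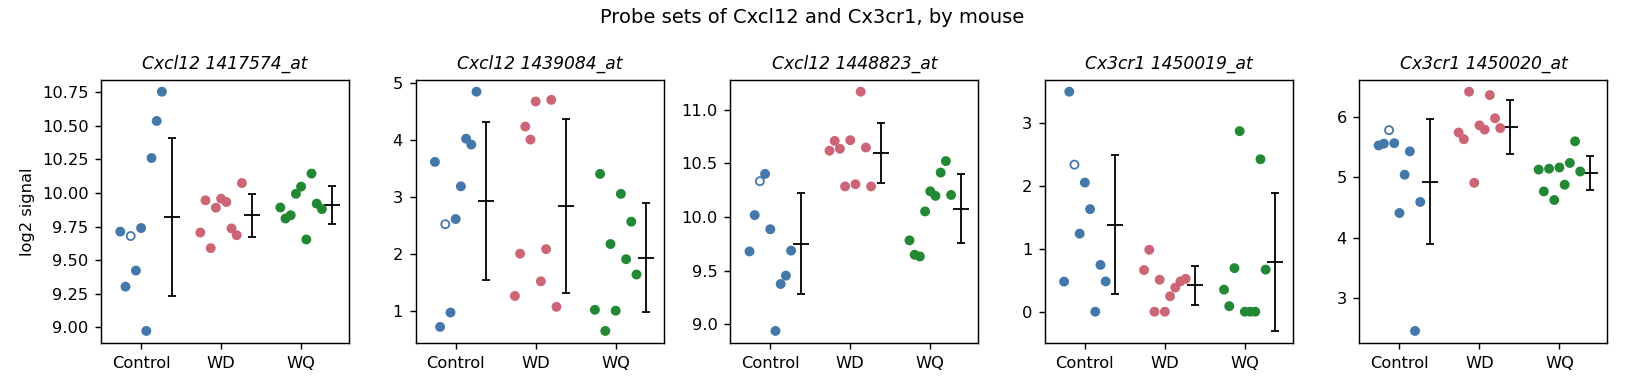
Log2 signal (y axis) of the 3 probe sets of Cxcl12 and the 2 of Cx3cr1 in each mouse by diet, with the mean and SD beside each group of 9 mice and an open circle for Control replicate 3. The rise of Cxcl12 in WD is seen with 1448823_at and not with 1417574_at.

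Pf4, platelet factor 4, which macrophages also make, ran from 9.45 to 10.39 on the control diet (median 10.12), from 10.41 to 11.26 on the Western diet (median 10.82) and from 10.09 to 10.97 with quercetin (median 10.57). Every WD mouse lay above every Control mouse, and the difference was 0.79, 95% CI 0.49 to 1.09, adjusted p = 0.00033. None of the 6 platelet markers passed the threshold in this comparison, and their median difference was 0.17. In WQ against Control all 6 were positive with a median of 0.54 and none passed, where Pf4 had 0.56, adjusted p = 0.020, and the part of platelets in the Pf4 result was not tested.

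The interferon-induced ligands of Cxcr3, which attract activated T cells, did not pass the threshold. Cxcl9 ran from 8.63 to 9.98 on the control diet (median 9.59), from 8.56 to 9.83 on the Western diet (median 9.08) and from 9.11 to 10.42 with quercetin (median 9.48). Of the 9 WD mice 8 lay below the Control median, but the ranges overlapped and the difference of -0.43, 95% CI -0.80 to -0.05, adjusted p = 0.11, did not pass. It did pass without the 2 arrays high in smooth muscle markers (-0.61, adjusted p = 0.017), without Control replicate 4 (-0.53, adjusted p = 0.036) and without WD replicate 9 (-0.52, adjusted p = 0.043). Cxcl10, which has both kinds of motif in its promoter, had 0.21, 95% CI -0.30 to 0.73, adjusted p = 0.62, Cxcl11 had 0.67, adjusted p = 0.43, and the receptor Cxcr3 had 0.39, adjusted p = 0.25. Control replicate 3 held the highest Cxcr3 signal of the 27 mice, 7.45.

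Ccl27a, a skin chemokine that draws T cells through Ccr10, was the gene that fell. Its signals ran from 6.78 to 9.01 on the control diet (median 7.42), from 6.41 to 6.95 on the Western diet (median 6.55) and from 6.67 to 7.60 with quercetin (median 6.89). Here 7 of 9 WD mice lay below every Control mouse, and the difference was -0.82, 95% CI -1.25 to -0.40, adjusted p = 0.0061. The highest value was that of Control replicate 6, the array with the highest testis and epididymis markers, and without the 3 arrays high in those markers the difference was -0.62, adjusted p = 0.0085. The part of that tissue in the result was not tested. Ccl28, the other ligand of Ccr10, had -0.54, adjusted p = 0.32, and Ccr10 had -0.27, adjusted p = 0.79.

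The fractalkine receptor Cx3cr1, a receptor of monocytes and resident macrophages, ran from 2.45 to 5.79 on the control diet (median 5.43), from 4.91 to 6.43 on the Western diet (median 5.82) and from 4.62 to 5.60 with quercetin (median 5.13). Control replicate 8 lay far below the other 8 Control mice, and 6 WD mice exceeded all Control mice. The difference was 0.91, 95% CI 0.28 to 1.54, adjusted p = 0.040. Without Control replicate 8 it was 0.60, adjusted p = 0.051, and the call was lost on leaving out any 1 of 10 arrays in all (Control replicates 5, 8 and 9 and WD replicates 1, 3 and 5 to 9). A second probe set near the floor went the other way (-0.97, adjusted p = 0.14), and the mean of both had -0.03. The ligand Cx3cl1 had -0.30, 95% CI -0.66 to 0.05, adjusted p = 0.25.

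Of the 5 atypical receptors 3 rose. Ackr1, which carries chemokines across the endothelium of venules, ran from 6.33 to 7.65 on the control diet (median 6.65), from 7.31 to 8.45 on the Western diet (median 7.92) and from 7.34 to 7.99 with quercetin (median 7.47). The WD mice lay above all Control mice in 8 of 9 cases, and the difference was 1.07, 95% CI 0.73 to 1.40, adjusted p = 5.8e-05. Ackr4, a scavenger of Ccl19, Ccl21 and Ccl25, ran from 2.86 to 4.79 on the control diet (median 4.39), from 4.39 to 5.60 on the Western diet (median 5.14) and from 3.71 to 5.28 with quercetin (median 4.76). Here too 8 of 9 WD mice exceeded all Control mice (difference 1.03, 95% CI 0.50 to 1.56, adjusted p = 0.0057), while its ligand Ccl25 had 0.12, adjusted p = 0.59. Ccrl2, which presents the attractant chemerin to other cells, ran from 4.84 to 6.57 on the control diet (median 5.80), from 6.41 to 6.92 on the Western diet (median 6.65) and from 6.08 to 6.69 with quercetin (median 6.26). Control replicate 3 lay inside the WD range, and the difference was 0.90, 95% CI 0.59 to 1.21, adjusted p = 0.00013. Chemerin (Rarres2), which is not itself a chemokine by name, was higher in WD as well (0.63, adjusted p = 5.4e-05). Ackr2, a scavenger of inflammatory CC ligands, had 0.24, 95% CI -0.08 to 0.56, adjusted p = 0.32. None of the 6 endothelial markers was higher in WD, and 1, Kdr, was lower (-0.51, adjusted p = 0.021).

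**Figure D4:**
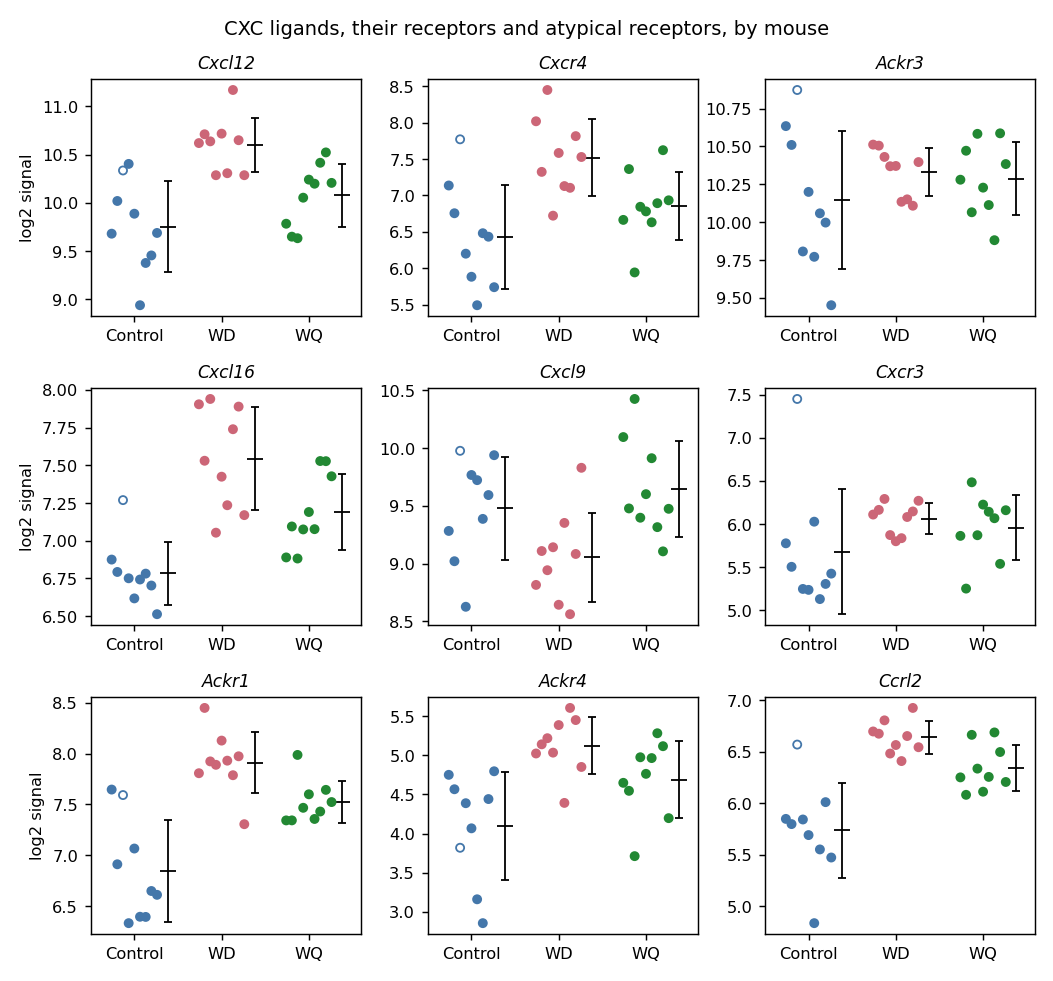
Log2 signal (y axis) of 3 CXC ligands, 3 receptors that bind them or their relatives, and 3 further atypical receptors in each mouse by diet, with the mean and SD beside each group of 9 mice and an open circle for Control replicate 3. Ackr1 and Ackr4 had 8 of 9 WD mice above all Control mice, and the mean of Cxcl9 was lowest in WD without passing the threshold.

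None of the 4 ligands that mainly attract T cell subsets passed, among them Ccl17 (0.79, adjusted p = 0.32) and Ccl22 (0.65, adjusted p = 0.19), the ligands of Ccr4 (-0.56, adjusted p = 0.56). Ccr7, which guides dendritic and naive T cells to lymph nodes, had 0.80, adjusted p = 0.14, and passed without Control replicate 3. Ccr6, Ccr8, Ccr9, Ccr1l1, Xcl1, Xcr1, Ccl1 and Ccl20 did not pass either, with differences from -0.19 to 0.90. Among 34 measured pairs of a receptor with its ligand, both passed upward in 5 (Ccr1 with Ccl3, Ccl6 and Ccl9, Ccr2 with Ccl2, and Cxcr4 with Cxcl12). Of these, 3 need the Ccr1 call, which many alternatives end, and Cxcr4 with Cxcl12 needs the 1 probe set of Cxcl12. In 11 pairs 1 partner rose and the other did not pass, in 1 the ligand fell, and in 17 neither passed.

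Neighbouring genes did not all change alike. In the order of RefSeq (GRCm38.p6), 6 CC ligands lie next to each other among the members on chromosome 11. Along this row the WD minus Control differences were 1.40 for Ccl2, 1.03 for Ccl7, 0.69 for Ccl11, -0.04 for Ccl12, 1.56 for Ccl8 and -0.0016 for Ccl1, and Ccl2, Ccl11 and Ccl8 passed. In the second row of that chromosome the differences were 0.15 for Ccl5, 1.87 for Ccl9, 1.26 for Ccl6, 1.25 for Ccl3 and 0.60 for Ccl4, and the middle 3 passed. Of the 6 neighbouring CXC ligands on chromosome 5, Pf4 and Cxcl2 passed, and of the 7 receptor genes in the row on chromosome 9, Ccr1 and Ccr2 did. Whether differences within a row were larger than chance was not tested.

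**Figure D5:**
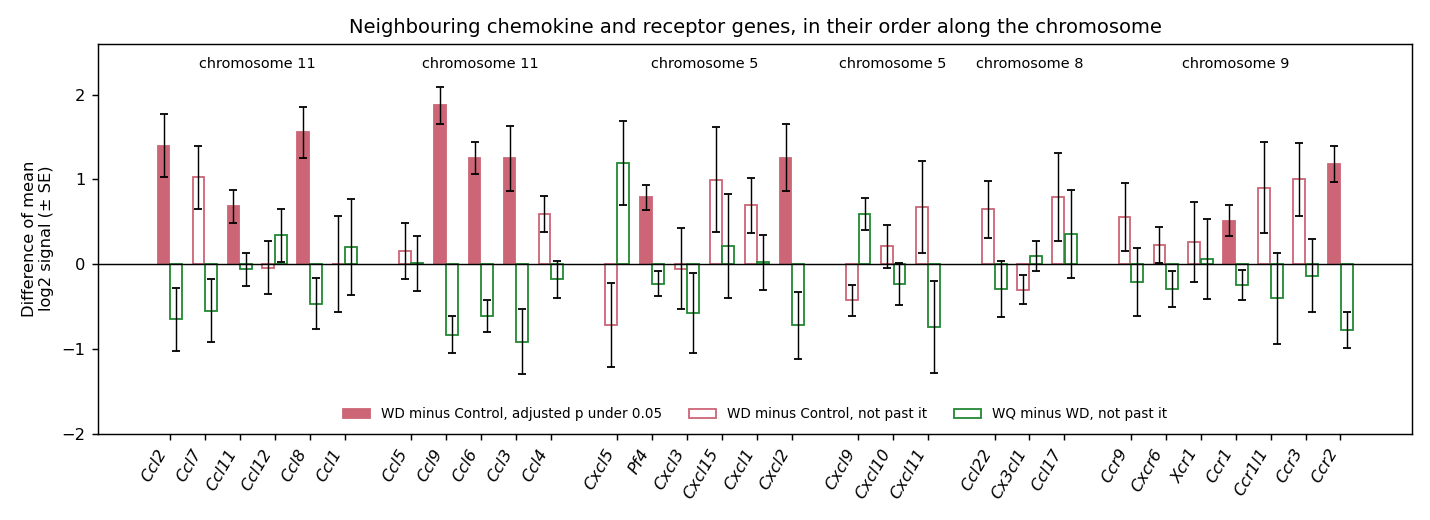
Differences of mean log2 signal (y axis, bars with SE) for the 6 rows of 3 or more neighbouring member genes, in their order along each chromosome, for WD minus Control and WQ minus WD. In the row from Ccl5 to Ccl4 the 3 filled bars are Ccl9, Ccl6 and Ccl3.

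The second comparison, WQ against WD, asks whether quercetin changed these genes when added to the Western diet. None of the 56 genes passed in either direction by limma, against 0.253% of all genes higher and 0.0824% lower. At an unadjusted p under 0.05, 10 were lower in WQ (17.9% of the 56, against 6.43% of all genes) and 2 were higher (3.57%, against 7.29%). In sign alone 39 of the 56 were lower, 69.6% against 46.6% of all genes, and the median difference was -0.22. The 10 lower genes were Ccl9, Ccr2, Ccl6, Cxcl12, Cxcl16, Cxcr4, Cx3cr1, Ackr1, Ccl3 and Ccr7, and the 2 higher ones were Cxcl9 and Cxcl5. WD mice enter both this and the first comparison, so a high or low WD mouse acts on both. Other tools gave up to 7 lower genes (limma with array weights) or 5 (the methods' test), as given with the alternatives.

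Ccl9 had the smallest p of the 56. Its difference was -0.83, 95% CI -1.28 to -0.38, adjusted p = 0.082, with 6 of 9 WQ mice below every WD mouse and WQ signals of 9.90 to 11.76 against 11.19 to 12.16 in WD. Its second probe set had -1.11, adjusted p = 0.085. Ccr2 followed with -0.77, 95% CI -1.21 to -0.34, adjusted p = 0.088. In this case 8 of 9 WQ mice lay below all WD mice, and the 1 exception, at 9.18, lay above the lowest WD mouse at 9.02. The 4 probe sets of Ccr2 had differences from -0.10 to -1.17, and none passed singly. Both Ccl9 and Ccr2 passed when WQ replicate 8 was left out (-0.93, adjusted p = 0.039 for Ccl9, and -0.86, adjusted p = 0.049 for Ccr2).

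Further ligands with an unadjusted p under 0.05 were Ccl6 (-0.61, 95% CI -0.99 to -0.22, adjusted p = 0.13), Cxcl12 (-0.52, 95% CI -0.85 to -0.19, adjusted p = 0.13), Cxcl16 (-0.35, 95% CI -0.62 to -0.09, adjusted p = 0.19) and Ccl3 (-0.92, 95% CI -1.70 to -0.13, adjusted p = 0.27). For Cxcl12 the second well-measured probe set had 0.07, adjusted p = 0.91. In Ccl6, 5 WQ mice lay below every WD mouse, in Cxcl12 7, in Cxcl16 2 and in Ccl3 3. Among receptors, Cxcr4 had -0.67, 95% CI -1.20 to -0.14, adjusted p = 0.22, Cx3cr1 -0.77, 95% CI -1.40 to -0.13, adjusted p = 0.24, Ackr1 -0.39, 95% CI -0.72 to -0.05, adjusted p = 0.27, and Ccr7 -0.83, 95% CI -1.59 to -0.07, adjusted p = 0.31. The WQ mice overlapped with WD in each.

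Ccl2, the ligand of Ccr2, had -0.65, 95% CI -1.42 to 0.12, adjusted p = 0.47 in this comparison. The WQ mice spanned 7.46 to 8.35 and the WD mice 7.60 to 9.52, so 3 WQ mice lay below all WD mice. The interval of Ccl8 was -1.08 to 0.15 around -0.47, that of Ccl7 -1.31 to 0.21 around -0.55, and that of Cxcl2 -1.53 to 0.08 around -0.72. Each of these intervals holds 0 and reaches below -1, so they do not show that quercetin left these genes as they were. Narrower intervals around 0 were found for Ccl11 (-0.46 to 0.34), Ackr3 (-0.33 to 0.24) and Ackr2 (-0.28 to 0.36).

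Of the interferon-induced ligands, Cxcl9 had the opposite sign to the 10 lower genes. Its difference was 0.59, 95% CI 0.21 to 0.97, adjusted p = 0.13, with an unadjusted p under 0.05. Above every WD mouse lay 3 WQ mice. The other probe set of Cxcl9 had 0.61, adjusted p = 0.079. Cxcl10 had -0.23, adjusted p = 0.77, and Cxcl11 had -0.74, adjusted p = 0.61. Cxcl5, the other gene higher in WQ at an unadjusted p under 0.05, had 1.20, adjusted p = 0.26, with 6 of its 27 values at the floor.

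The third comparison, WQ against Control, asks which members still differed from Control when quercetin was in the Western diet. Here 6 of the 56 were higher (10.7%, against 5.01% of all genes) and 0 were lower (against 1.65%). At an unadjusted p under 0.05, 13 were higher, against 14.6% of all genes, and 1, Ccl27a, was lower, against 7.36%. The 6 were Ccl8 (1.09, 95% CI 0.47 to 1.70, adjusted p = 0.029), Ccl9 (1.04, 95% CI 0.59 to 1.50, adjusted p = 0.0056), Ackr1 (0.68, 95% CI 0.34 to 1.01, adjusted p = 0.013), Ccl6 (0.65, 95% CI 0.27 to 1.03, adjusted p = 0.036), Ccrl2 (0.61, 95% CI 0.30 to 0.92, adjusted p = 0.016) and Pf4 (0.56, 95% CI 0.26 to 0.86, adjusted p = 0.020). The WQ and Control mice overlapped in all 6. The calls were the least stable for Ccl6 and Ccl8, which were lost under 18 and 13 of the 44 alternatives, leaving out single arrays of either diet among them. The Control mice are shared with the first comparison. For Ccr2 the difference from Control was 0.41, 95% CI -0.02 to 0.84, adjusted p = 0.26, and for Ccl2 0.75, 95% CI -0.02 to 1.52, adjusted p = 0.24. Without Control replicate 3 there were 11 higher genes, with Ccl2, Ccl11, Cxcl1, Cxcl16 and Cxcr3 added, and without the arrays high in liver markers 0 were called in a fit with 7 Control and 6 WQ mice. Over the 3 diets together, 16 of the 56 passed the moderated F test, against 16% of all genes.

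Most macrophage markers were also higher on the Western diet, with a median difference from Control of 1.31. Of 20 macrophage markers 18 were higher in WD than in Control, from 0.84 for Csf1r, the receptor of the macrophage growth factor, to 4.02 for Trem2, a lipid receptor of macrophages. Their mean log2 signal ran from 8.43 to 9.68 over the Control arrays, from 9.53 to 10.8 over WD and from 8.65 to 10.3 over WQ. WQ replicates 7, 8 and 9 were the highest of their diet, at 10.34, 10.31 and 10.13, and WQ replicate 5 followed at 9.70. Whether these mice shared a cage is not given, and its part in the results was not tested. In WQ against WD the median difference of the macrophage markers was -0.70 and none passed. The median for the 56 chemokine and receptor genes was 0.58 in the first comparison and -0.22 in the second. Of 12 T cell markers none passed in WD against Control, and of 7 neutrophil markers S100a8 (1.91, adjusted p = 0.00028) and Csf3r rose and Mmp9 fell. The 7 fibroblast markers had 4 higher, among them Lum (1.41, adjusted p = 0.00011). Of the dendritic cell markers 2 of 6 were higher, of the eosinophil markers 1 of 4, of the B cell and lymph node markers 1 of 10, of the adipocyte markers 1 of 8 and of the mast cell markers 0 of 6. Lower in WD were 2 of 6 smooth muscle markers, 1 of 6 mesothelial, 1 of 7 liver and 1 of 2 erythroid markers, and 0 of 9 testis and epididymis markers passed. These counts of calls do not give the direction of a whole list. The liver markers had a median difference of 1.54, with 6 of 7 above 0. For the B cell and lymph node markers the median was -0.58, with 3 of 10 above 0. For the testis and epididymis markers it was -1.81, with 0 of 9 above 0. The part of macrophages, of RNA integrity and of other tissue in the chemokine results was not tested.

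Genes that act below the receptors rose with the Western diet in part. Of 43 measured genes of receptor signalling and migration, 17 were higher and 0 lower in WD, with a median difference of 0.30. They included Pik3r5, the regulatory subunit of the phosphoinositide kinase that chemokine receptors activate (1.60, adjusted p = 1.9e-05), Wipf1, which assembles actin with the Wiskott-Aldrich protein (0.69, adjusted p = 8.1e-05), and Vav3, a guanine nucleotide exchange factor (0.92, adjusted p = 0.00011). Wipf1 was the 1 gene of this list that fell in WQ against WD (-0.55, adjusted p = 0.031), followed by Rap1b (-0.29, adjusted p = 0.081) and Vav3 (-0.57, adjusted p = 0.082), which did not pass. Of 13 genes that switch receptor signals off, 7 were higher in WD and 0 lower. Those with the smallest p were regulators of G protein signalling. Rgs18 had 1.85, adjusted p = 2.9e-05, Rgs1 3.14, adjusted p = 4.5e-05, and Rgs19 0.77, adjusted p = 5.4e-05. In WQ against WD, Rgs18 had -0.89, adjusted p = 0.11, and Rgs1 -1.44, adjusted p = 0.14.

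Of 11 proteases that cut or shed chemokines, 5 were higher in WD and 1, Mmp9, was lower (-1.10, adjusted p = 0.017). Those with the smallest p were Ctss, a lysosomal cathepsin of antigen-presenting cells (1.70, adjusted p = 0.00013), Mmp2 (1.19, adjusted p = 0.00016) and Adam17 (0.67, adjusted p = 0.0012). Of 18 genes that induce chemokines, 6 were higher, including Tlr2, a receptor of bacterial lipopeptides (1.00, adjusted p = 0.00022), Tgfb1 (0.85, adjusted p = 0.00033) and Irf7, a factor of the interferon response (0.41, adjusted p = 0.0022). Of 15 other chemoattractants and their receptors, a list that also holds Ccrl2, 9 were higher, including C3ar1, the receptor of the complement fragment C3a (2.29, adjusted p = 5.5e-05), and Saa3, a serum amyloid (3.25, adjusted p = 6.4e-05). None of the genes in these 3 lists passed in WQ against WD. The shares of the 5 lists called higher in WD stand beside 11.3% of all genes, and the lists were chosen with earlier results of these data known.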

How the data were processed

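Each of the 27 samples was the epididymal adipose tissue RNA of 1 mouse on 1 array. The authors deposited linear signal intensity values per probe set, made with Microarray Suite and analysed in GeneSpring, and the array median of these intensities ran from 25.2 to 54.4. The intensities were quantile normalized (limma 3.58.1, R 4.3.3), values below 1 were set to 1, and log2 was taken. Of 45101 probe sets, 34945 named 1 gene, and 932 that named several were left out. Each of the 18193 genes was represented by its probe set of highest mean. Quantile normalization gives every array the same distribution of signals, so levels are relative to the other genes of that array. The 3 diets were fitted together with limma (moderated statistics with a mean trend, 95% confidence intervals), the p-values were adjusted by the Benjamini-Hochberg method across genes, and the fit was tested on simulated data. The number of arrays limits the precision.

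The members, the 21 gene lists and the tests were chosen with earlier results of these data known, so the lists are not independent evidence. All 56 members are accounted for, and no filter on low values was applied in the main analysis. By the rule for named genes, every member past the threshold was named with its receptor or ligands, as were the members the study names, the 3 with the smallest p for WQ against WD and, of each pathway list, up to 3 genes with the smallest p. Of the marker lists, Csf1r, Lum, Kdr and the neutrophil genes were named after their values were seen, as were the remaining members. Pairs of receptor and ligand were fixed by hand. Alternatives were other scalings, floors, probe set rules, fits and tests, including the methods' test (Welch's analysis of variance with Benjamini-Hochberg adjustment, followed by Tukey's test), and leaving out arrays. The exclusion of arrays high in liver markers, alone and with the other marker rules, was chosen after seeing the data. An array counted as high where its marker mean lay above the median of the 27 arrays by more than 3 (testis), 2 (smooth muscle, liver) or 1 (lymph node). Figures were drawn with matplotlib 3.10.9.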

Additional observations from a re-analysis of the deposited data

Results flagged for a closer look

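Among the 22 genes examined in each of the 3 diets, 7 of 66 groups held a mouse that stood apart from the other 8, meaning that its gap to the nearest mouse as a share of the range of its group was above Dixon's 95% critical value. Chance flags about 1 in 20 groups. WQ replicate 3 was highest in Ackr1, at a log2 signal of 7.99 against 7.64 for the next mouse, and lowest in Cxcl17, at 2.47 against 4.29. WD replicate 7, an array high in testis markers, was highest in Ccr2 (9.98 against 9.48) and in Cxcl12 (11.17 against 10.72). Control replicate 6, also high in testis markers, was highest in Ccl27a, at 9.01 against 7.82. Control replicate 3, the array high in lymph node markers, was highest in Cxcl16, at 7.27 against 6.88. Control replicate 8 was lowest in Cx3cr1, at 2.45 against 4.41.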

How the results depend on the processing

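For WD against Control, the 19 higher members became 12 under a filter to genes above the median signal, 12 by the methods' test, 12 with its Tukey p adjusted over genes and 12 without the arrays high in liver markers, and the 1 lower member became 2 with array weights and 2 without the arrays high in smooth muscle markers. For WQ against WD, 0 higher members became 1 with array weights (Cxcl9). The 0 lower members became 7 with array weights, 5 by the methods' test (Ccl6, Ccl9, Ccr2, Cxcl12 and Cxcl16), 4 with only those 2 diets in the fit, 2 under the filter, 2 with the Tukey p adjusted (Ccl9 and Ccr2 in both) and 1 with a floor of 32 (Cx3cr1). For WQ against Control, the 6 higher members became 1 without normalization, 3 with 2 diets in the fit, 3 without the arrays high in smooth muscle markers, 11 without the array high in lymph node markers and 0 without those high in liver markers. The F test's 16 members became 9 without normalization and 10 without the arrays high in liver markers. The causes were not tested, and some settings also leave fewer genes or arrays. Leaving out 1 array at a time gave 15 to 24 higher and 1 to 2 lower members in WD (2 without Control replicate 4, Control replicate 6 or WD replicate 9), 0 to 0 higher and 0 to 2 lower in WQ against WD (2 without WQ replicate 8), 4 to 11 higher and 0 to 0 lower in WQ against Control (11 without Control replicate 3), and 13 to 23 by F. Some differences changed sign, and not all of them were small. In the main analysis Cx3cr1 had 0.91 in WD against Control, and Ccl3 and Cxcl12 had 0.33 and 0.32 in WQ against Control. In WD against Control the gene that changed sign was Cx3cr1 (-0.0281 with the mean of its probe sets). In WQ against WD it was Ccl11 (-0.127 to 0.0167 over single arrays left out, above 0 without WQ replicate 3 or 6) and Cxcl17 (0.0166 without normalization, 0.00115 with a floor of 32, -0.214 to 0.104 over single arrays left out, above 0 without WQ replicate 3). In WQ against Control it was Ccl3 (-0.0238 with a floor of 32), Cx3cr1 (-0.172 with a floor of 32, -0.228 with the mean of its probe sets, -0.169 to 0.249 over single arrays left out, below 0 without Control replicate 8), Cxcl12 (-0.195 with the mean of its probe sets) and Cxcl9 (-0.0218 without the arrays high in smooth muscle markers).

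The labels number the mice 1 to 9 in each diet. Same-numbered arrays had median correlations of their deviations of 0.07 (Control and WD), -0.05 (Control and WQ) and -0.04 (WD and WQ). Of 27 arrays, 2 correlated best with their own number, so equal numbers were not treated as pairs across diets. Whether neighbouring numbers within a diet share a cage or a processing order was not tested. With the replicate number as a block, 20 members were higher and 1 lower in WD, 0 and 0 in WQ against WD, 6 and 0 in WQ against Control, and 19 passed the F test.

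Signals at the floor limit 9 members, which had 1 to 11 arrays at it, and 38 members lay at or below the median signal of all genes, with 8 of the 19 higher ones among them. Low signals were not limited to those 9. Ccl3, Cxcl17 and Ackr4 had no array at the floor, but their mean log2 signals were 4.18, 4.10 and 4.63. With a floor of 32, Ccl3, Ccr1, Cxcl17 and Cxcl2 no longer passed in WD against Control. Of 20 members with several probe sets, the sets had the same sign in 11 and mixed signs in 9 for WD against Control, and none had sets past the threshold both ways.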

Other observations

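Some chemokines were measured only by probe sets that name several genes, so they are outside the 56 and are given without a test. The set that names Ccl19, a lymphoid ligand of Ccr7, among 10 genes had a log2 signal of 6.85 ± 0.65 in Control, 7.58 ± 0.26 in WD and 7.33 ± 0.39 in WQ (SD, n = 9 each). The products of the Ccl21 genes guide T cells and dendritic cells into lymph nodes. The set that names 4 Ccl21 genes, among 9 genes, had 8.66 ± 1.44 in Control, 7.33 ± 2.19 in WD and 7.41 ± 2.92 in WQ, and its WQ values ran from 1.25 to 10.26. Both sets that name Ccl27a and Ccl27b, each among 5 genes, were lowest on average in WD, at 6.65 ± 0.21 and 6.22 ± 0.22, where Control had 7.39 ± 0.68 and 6.81 ± 0.88.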
